A study of Mus musculus with 6 samples.

Results

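The helper and regulatory interleukin genes Il2, Il4, Il5, Il9, Il10, Il13, Il17a, Il21 and Il22 and the transcription factor gene Gata3 were examined in cultured mouse T cells. The members were named by gene symbol, and a probe set counted as a member's when it carried that single symbol in the array's annotation. Of the 10 genes, 9 had such a probe set, and with 2 for Il21 this gave 10 probe sets among the 45037 tested and 9 genes among 18193 with a symbol. Il22 had none of its own, since the annotation joined its symbol to that of its duplicate Iltifb on 1 probe set.

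All 6 arrays were labelled as from a T cell clone. The 2D11 group, labelled CD8aa Tregs, had 3 arrays (replicates 1, 2 and 4), and the series title places such cells among regulatory T cells that recognise the class Ib molecule Qa-1. The OvacD8 group, labelled OT-1 CD8aa+TCRab+ T cells, had 3 arrays (replicates 1, 2 and 3); OT-1 is the usual name of a T cell receptor transgene that recognises ovalbumin. Both were cultured with their own antigen, with antigen-presenting cells and with added IL-2, and the labels give no mouse strain, age or time after stimulation. Nor do they say whether a group was more than 1 clone or its replicates more than 1 culture, so the p-values cover the spread among these arrays alone, and that spread may be technical.

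Helper T cells are sorted by the cytokines they release. IL-4, IL-5, IL-9 and IL-13 drive type 2 immunity against worms and in allergy, IL-17A and IL-22 act on epithelia, IL-21 helps B cells, IL-2 feeds T cell growth and IL-10 restrains inflammation. GATA3 is the master factor of the type 2 programme and is also used by developing and CD8+ T cells. Most of these cytokine genes are silent in resting cells and are switched on for hours after the T cell receptor is engaged, through factors such as NFAT and AP-1.

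The deposited values were read as log2 values from which the median of each probe set over the 6 arrays had been removed, so 0 marks that median and not an absence of RNA. A difference between arrays can be read from them, but a level cannot, and the values below do not tell a dim probe set from a bright one. In bulk samples, fewer cells of a type and less RNA per cell cannot be told apart.

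The OvacD8 arrays were unlike each other. Over the 29526 probe sets that spanned at least 0.1, OvacD8 replicate 1 correlated with replicates 2 and 3 at 0.298 and 0.353, while those correlated with each other at 0.855. The 2D11 arrays correlated with each other at 0.614 to 0.671. The mean of 12 poly-A spike-in controls was -0.10 to 0.79 on the 2D11 arrays and 0.47 on OvacD8 replicate 1, against -1.59 and -2.26 on OvacD8 replicates 2 and 3. Of 21 probe sets for T cell markers, 3 spanned under 0.1. Cd8b1, the beta chain that CD8aa cells, as both groups are labelled, are defined by lacking, was lower in 2D11 at -2.36 ± 0.11 (2D11 minus OvacD8, log2, SE; limma adjusted p = 0.00142). Cd247, the zeta chain of the receptor complex, was lower with 2 probe sets, at -1.09 ± 0.07 and -1.24 ± 0.08 (SE; limma adjusted p = 0.00402 and 0.00399). The 5 probe sets of Cd8a, the alpha chain, disagreed: 1 was higher at 0.85 ± 0.07 (limma adjusted p = 0.00814), a call lost without OvacD8 replicate 2 (adjusted p = 0.0515). Another stood at -2.40 ± 0.44, with groups that did not overlap, and did not pass (limma adjusted p = 0.0636).

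None of the member probe sets passed the test between 2D11 and OvacD8. Of 10 tested, 0 passed at an adjusted p under 0.05 (limma, Benjamini-Hochberg over all probe sets) and 0 had an unadjusted p under 0.05, against 4.06% of all probe sets called (2.00% higher and 2.05% lower in 2D11) and 16.0% at an unadjusted p under 0.05. The adjusted p values of the members ran from 0.410 to 0.992. Their median difference was 0.0097, and that of all probe sets was 0.0076.

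The span, which is the highest minus the lowest of the 6 arrays, separated the members into 2 sets. Il4, Il5, Il9, Il10, Il13, Il17a and 1 probe set of Il21 spanned under 0.1, from 0.024 for Il5 to 0.076 for Il4. Gata3 (0.517), Il2 (0.172) and the other probe set of Il21 (0.127) spanned at least 0.1. Thus 7 of 10 member probe sets (70.0%) lay under 0.1, as did 15511 of all probe sets (34.4%). Of those 15511 probe sets, 0 were called by limma, so a probe set that hardly moved on these arrays was never among the calls.

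**Figure D1:**
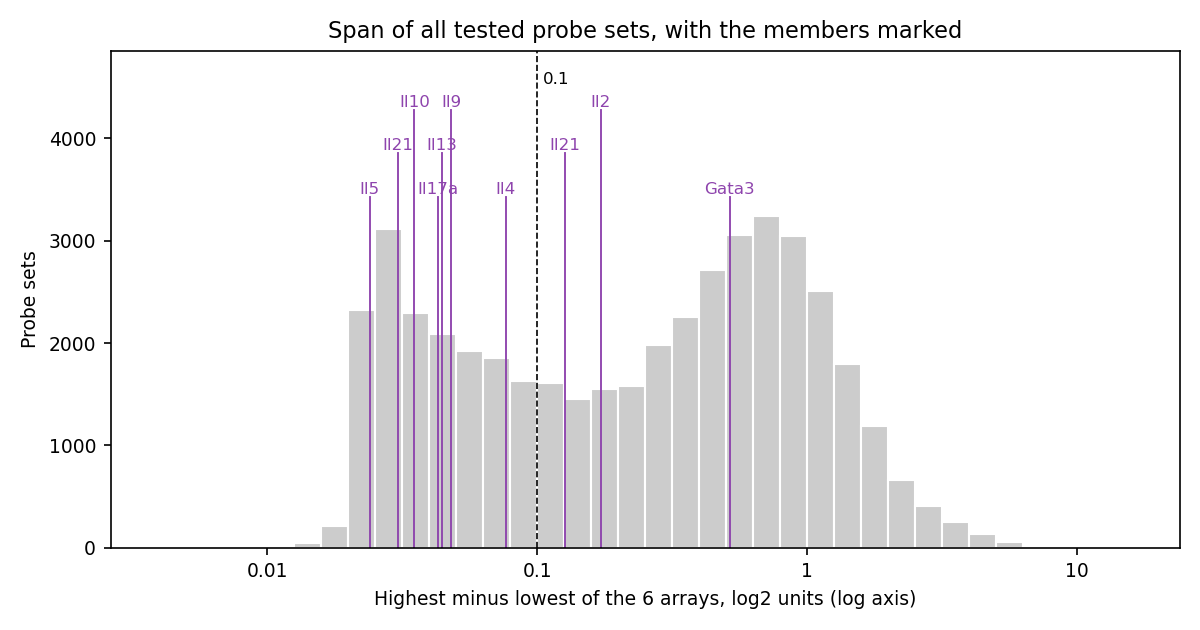
Number of probe sets (y axis) by span over the 6 arrays in log2 units (x axis, log scale) for the 45037 tested probe sets, with the 10 member probe sets as purple lines and the limit of 0.1 dashed. Of the members, 7 stand left of the limit, and Gata3 stands farthest right at 0.517.

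Gata3 had the widest span of the members. Its values were 0.063, 0.341 and 0.011 on 2D11 replicates 1, 2 and 4, against -0.066, -0.176 and -0.011 on OvacD8 replicates 1, 2 and 3. Every 2D11 array lay above every OvacD8 array, by a narrow margin between 2D11 replicate 4 and OvacD8 replicate 3, and 2D11 replicate 2 stood apart at the top. It was the 1 member of 10 whose groups did not overlap, as was the case for 20.3% of all probe sets. Its mean was 0.138 ± 0.177 in 2D11 and -0.084 ± 0.084 in OvacD8 (SD, n = 3 each). The difference of 0.22 ± 0.10 (SE; 95% interval -0.05 to 0.49), or 1.17-fold, did not pass (adjusted p = 0.410, limma). It was 0.12 without 2D11 replicate 2 and 0.09 with array weights (adjusted p = 0.587 and 0.171). Equal expression is not shown by this, and neither is a difference.

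**Figure D2:**
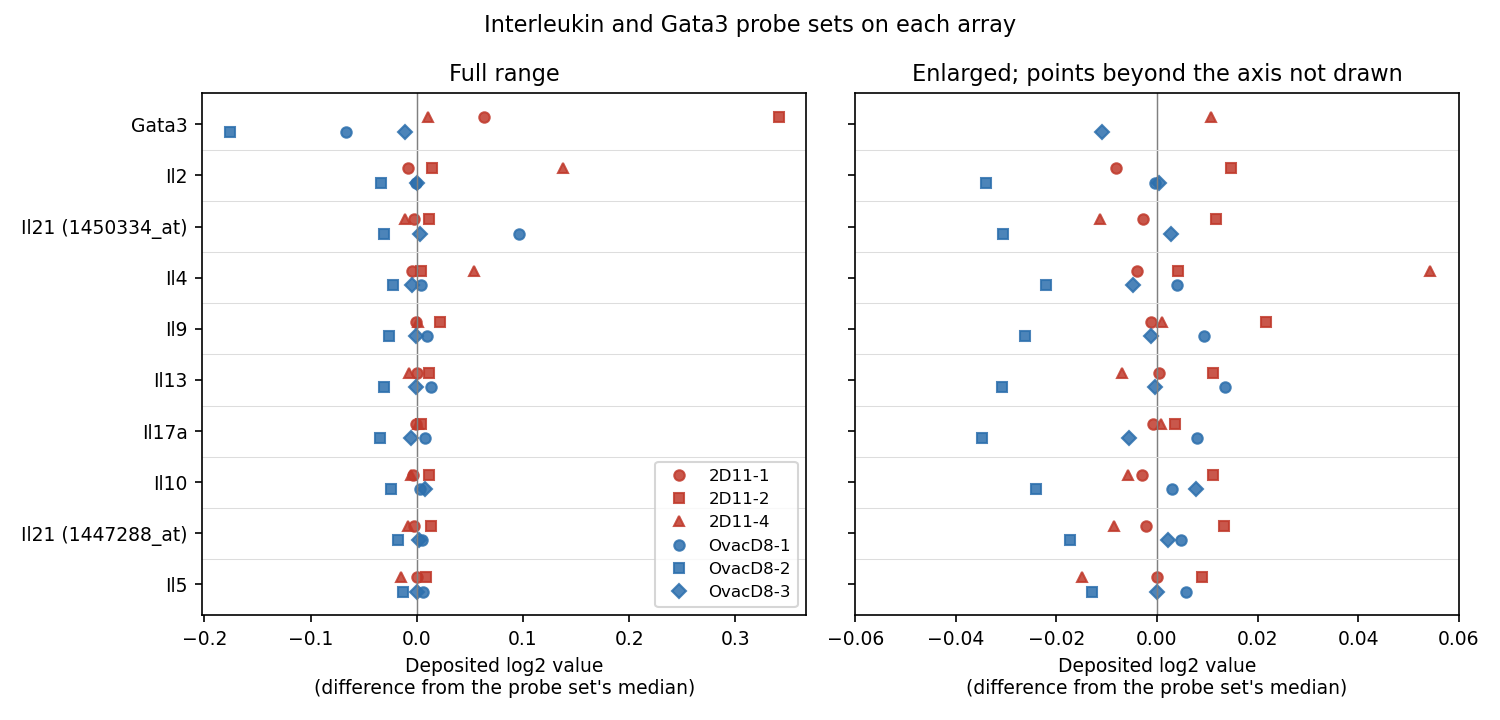
Deposited log2 value, as the difference from the probe set's median over the arrays (x axis), of each member probe set (rows, widest span at the top) on the 3 arrays of 2D11 (red, upper points of a row) and the 3 of OvacD8 (blue, lower points). The left panel holds all values and the right panel enlarges the range of -0.06 to 0.06; Gata3 alone has 2D11 and OvacD8 points that do not overlap.

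Proximal promoters are shown, of the interleukin gene with the widest span (Il2) and of the adjacent type 2 genes Il4 and Il13, both under 0.1, since such regions carry sites for the factors that switch these genes on. Each is the 250 bases before the gene start in RefSeq's GRCm38.p6, minus strand (chr3:37125955-37126204 for Il2, chr11:53618666-53618915 for Il4 and chr11:53634703-53634952 for Il13), written 5′ to 3′, with matches on either strand to the NFAT motif TGGAAA and to the GATA motif, spelled AGATAA or alternatively TGATAA, in capitals.
Il2: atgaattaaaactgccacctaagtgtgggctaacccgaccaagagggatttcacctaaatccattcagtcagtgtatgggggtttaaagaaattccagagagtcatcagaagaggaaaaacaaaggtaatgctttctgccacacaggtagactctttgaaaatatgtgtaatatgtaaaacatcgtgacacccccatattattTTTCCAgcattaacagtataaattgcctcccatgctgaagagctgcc
Il4: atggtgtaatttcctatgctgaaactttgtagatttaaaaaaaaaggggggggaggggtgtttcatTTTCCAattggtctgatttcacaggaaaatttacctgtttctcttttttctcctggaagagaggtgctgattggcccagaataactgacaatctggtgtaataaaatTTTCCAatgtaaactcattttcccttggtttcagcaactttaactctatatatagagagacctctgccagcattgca
Il13: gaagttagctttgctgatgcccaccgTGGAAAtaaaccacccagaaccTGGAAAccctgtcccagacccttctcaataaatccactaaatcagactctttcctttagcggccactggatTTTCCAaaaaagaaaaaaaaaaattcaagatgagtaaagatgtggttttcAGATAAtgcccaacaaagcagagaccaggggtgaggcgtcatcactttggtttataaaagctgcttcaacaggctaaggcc

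Windows from 250 bases before to 50 after the start were on hand for 9 of the 10 genes, all but Il10. The NFAT motif was found in 6 of these 9 (Il2, Il4, Il5, Il13, Il21 and Il22) and in 21.4% of 32851 windows of all genes. A GATA motif, in either spelling, was found in 3 of 9 (Il13, Il22 and Il4, where it lies within the 50 bases after the start) and in 18.6% of all. The AP-1 motif TGACTCA was found in Il9 and in 5.20% of all, and the STAT motif TTCNNNGAA in 0 of 9 and in 8.30% of all. The Il22 window belongs to a start 380 bases from the start of its RefSeq gene. The Gata3 window belongs to a start 9353 bases inside the RefSeq gene and held 0 of these motifs. The matches do not overlap each other, and they describe letters, not occupied sites.

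Il2 encodes the growth factor of T cells, which was also supplied in the medium. Its values were -0.0082, 0.0147 and 0.138 on 2D11 replicates 1, 2 and 4, against -0.00042, -0.0340 and 0.00042 on OvacD8 replicates 1, 2 and 3. The value on 2D11 replicate 4 stood alone, and the other arrays of both groups overlapped. The difference was 0.060 ± 0.045 (SE; 95% interval -0.056 to 0.175; limma adjusted p = 0.701), and 0.015 without 2D11 replicate 4.

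Il4 gave the same picture on a smaller scale. The IL-4 gene, whose product turns helper cells to the type 2 fate, stood at -0.0041, 0.0042 and 0.0544 on the 2D11 arrays, against 0.0041, -0.0220 and -0.0047 on the OvacD8 arrays. Again 2D11 replicate 4 was highest and the rest overlapped. The difference was 0.026 ± 0.023 (95% interval -0.033 to 0.084; limma adjusted p = 0.757), and 0.0076 without 2D11 replicate 4.

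Il13, next to Il4 in the genome and a mediator of mucus production and worm expulsion, stood at 0.0004, 0.0111 and -0.0069 on the 2D11 arrays, against 0.0135, -0.0309 and -0.0004 on the OvacD8 arrays. Il5, the eosinophil growth factor gene of the same cluster, stood at 3e-06, 0.0090 and -0.0149 on the 2D11 arrays, against 0.0057, -0.0128 and -3e-06 on the OvacD8 arrays. Il9, a mast cell growth factor gene, stood at -0.0011, 0.0217 and 0.0011 on the 2D11 arrays, against 0.0093, -0.0263 and -0.0011 on the OvacD8 arrays. In all of these the groups overlapped, and OvacD8 replicate 2 was lowest for Il13 and Il9. The differences were 0.0074 ± 0.0187 for Il13, 0.0004 ± 0.0159 for Il5 and 0.0133 ± 0.0180 for Il9 (SE; limma adjusted p = 0.942, 0.992 and 0.863).

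Il17a, the gene of a cytokine that recruits neutrophils, stood at -0.0007, 0.0036 and 0.0007 on the 2D11 arrays, against 0.0081, -0.0347 and -0.0055 on the OvacD8 arrays. Il10, the gene of the regulatory cytokine of this set, stood at -0.0030, 0.0111 and -0.0057 on the 2D11 arrays, against 0.0030, -0.0240 and 0.0078 on the OvacD8 arrays. Neither separated the groups. The differences were 0.0119 ± 0.0179 for Il17a (limma adjusted p = 0.884) and 0.0052 ± 0.0170 for Il10 (95% interval -0.039 to 0.049; limma adjusted p = 0.942).

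The 2 probe sets of Il21 disagreed on OvacD8 replicate 1. The wider one, with a span of 0.127, stood at -0.0027, 0.0117 and -0.0114 on the 2D11 arrays, against 0.0963, -0.0306 and 0.0027 on the OvacD8 arrays. The narrower one, with a span of 0.031, stood at -0.0023, 0.0133 and -0.0086 on the 2D11 arrays, against 0.0049, -0.0172 and 0.0023 on the OvacD8 arrays. The high value of replicate 1 was thus seen with 1 probe set of this B cell helper cytokine and not with the other. Their differences were -0.024 ± 0.038 and 0.0042 ± 0.0162 (SE; limma adjusted p = 0.893 and 0.942), and the first turned to 0.013 without OvacD8 replicate 1.

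Most member probe sets that spanned under 0.1 rose and fell over the arrays much as all such probe sets did. OvacD8 replicate 2 was the lowest array for 9 of the 10 member probe sets, and for 6 of the 7 that spanned under 0.1. It was the lowest for 52.6% of all probe sets and for 88.3% of those that spanned under 0.1. The median of these 7 was -0.0011, 0.0111 and -0.0057 on 2D11 replicates 1, 2 and 4, against 0.0057, -0.0240 and -0.0004 on OvacD8 replicates 1, 2 and 3. The median of all 15511 such probe sets was -0.0012, 0.0116 and -0.0055 on the 2D11 arrays, against 0.0068, -0.0188 and 0.0002 on the OvacD8 arrays, nearly the same values. With each array centred on its median over all probe sets, the median span of the 7 was 0.016, against 0.043 as deposited, and for all such probe sets it was 0.018, against 0.039. Il4 kept most of its span (0.069), and the spans of Gata3, Il2 and the wider Il21 probe set stayed at 0.484, 0.158 and 0.102.

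**Figure D3:**
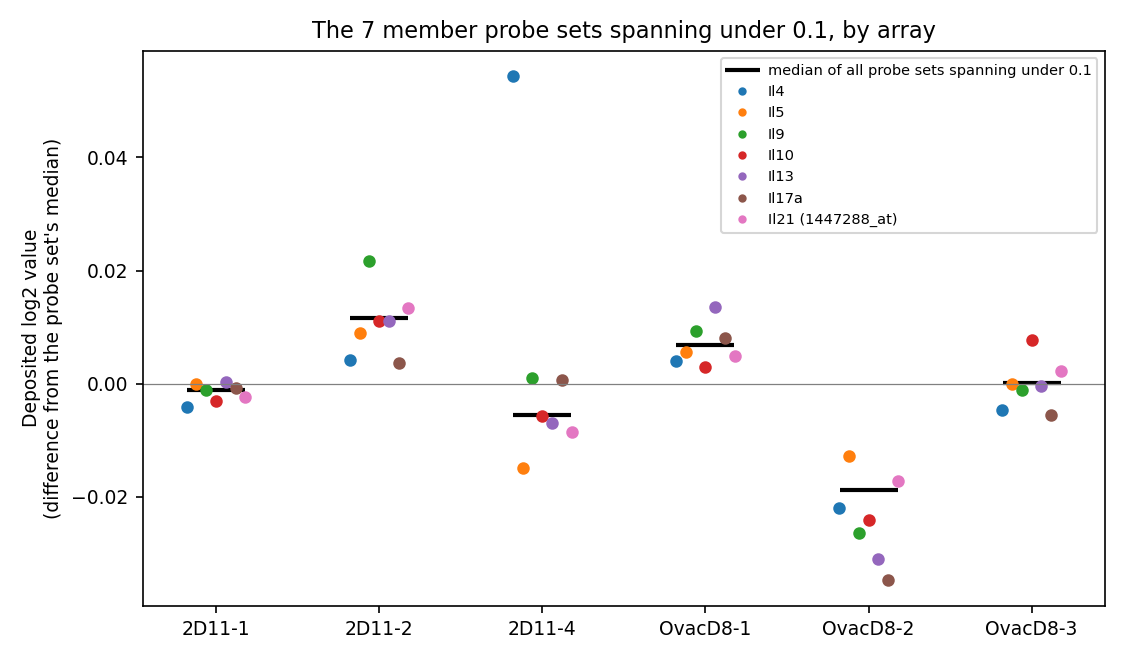
Deposited log2 value, as the difference from the probe set's median (y axis), of the 7 member probe sets that span under 0.1 on each array (x axis, 2D11 left of OvacD8), with a black bar at the median of all 15511 probe sets that span under 0.1. The points lie around the bars, low on OvacD8-2 and high on 2D11-2, and Il4 on 2D11-4 (0.0544) lies away from them.

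Probe sets of 5 lists of related genes were counted against the 4.06% of all probe sets called. The lists were assembled with earlier results of these data known, and their counts are descriptions. Of 27 probe sets for 20 other cytokines of helper cells, 2 were higher and 0 lower in 2D11 (8 at an unadjusted p under 0.05), a share of 7.41% with a median difference of 0.0094. Csf2, encoding GM-CSF and lying in the same cytokine cluster as Il4, Il5 and Il13, stood at 1.55, 1.12 and 1.44 on the 2D11 arrays, against -1.87, -1.12 and -1.35 on the OvacD8 arrays. The groups were far apart, with a difference of 2.81 ± 0.23 (SE; limma adjusted p = 0.0076), a 7.04-fold change. Il3, another gene of that cluster, spanned 0.032 and did not pass (limma adjusted p = 0.943). Lta, encoding lymphotoxin alpha, was higher by 1.11 ± 0.17 (limma adjusted p = 0.037), but not in 4 of the 6 fits that left out 1 array (highest adjusted p = 0.131, without 2D11 replicate 2). The interferon gamma gene Ifng, the neighbour of the Il22 locus, stood at -0.07, -0.09 and 0.07 on the 2D11 arrays, against -1.20, 2.30 and 2.28 on the OvacD8 arrays, and did not pass (limma adjusted p = 0.761). Without OvacD8 replicate 1 the list had 4 probe sets higher and 2 lower, in a fit that called 4773 of all 45037 probe sets.

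Receptors for the member cytokines were lower where they passed. Of 29 probe sets for 15 receptor genes, 0 were higher and 3 lower, a share of 10.3% (7 at an unadjusted p under 0.05). Over the fits without 1 array, 2 to 6 were lower. The 6 came without OvacD8 replicate 1, where 4773 of all 45037 probe sets were called. Il2ra, the alpha chain of the high-affinity IL-2 receptor, averaged -1.77 ± 0.39 in 2D11 and 1.57 ± 0.13 in OvacD8 with 1 probe set, and -1.41 ± 0.41 in 2D11 and 1.03 ± 0.05 in OvacD8 with the other (SD, n = 3 each). Both passed at -3.33 ± 0.22 and -2.45 ± 0.22 (SE; limma adjusted p = 0.0035 and 0.0093), and the second was lost without OvacD8 replicate 2 (adjusted p = 0.0583). Il10rb, a chain shared by the IL-10 and IL-22 receptors, averaged -0.46 ± 0.03 in 2D11 and 0.48 ± 0.05 in OvacD8 (SD, n = 3 each) and was lower with 1 probe set, at -0.94 ± 0.03 (limma adjusted p = 0.000624), while its other stood at 0.34 and did not pass (limma adjusted p = 0.905). The other 13 receptor genes did not pass. Il9r, at a span of 0.036, moved as little as Il9 itself.

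Among 32 probe sets for 14 Janus kinases, STATs and their inhibitors, 1 was higher and 1 lower (7 at an unadjusted p under 0.05), a share of 6.25%. Socs2 and Socs5 encode suppressors of cytokine signalling and stood at 1.57 ± 0.22 and -1.19 ± 0.17 with 1 probe set each (SE; limma adjusted p = 0.0296 and 0.0327). The other probe sets of Socs2 disagreed in sign, from -0.55 to 0.64, and did not pass. The other one of Socs5 stood at -1.09 and did not pass (limma adjusted p = 0.175). Neither call held in 4 of the 6 fits without 1 array, with the highest adjusted p at 0.117 for Socs2 (without 2D11 replicate 2) and 0.134 for Socs5 (without OvacD8 replicate 2). Stat6, which carries the IL-4 signal and turns on Gata3, did not pass with either of its probe sets (adjusted p = 0.347 and 0.794).

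Of 84 probe sets for 29 transcription factors that act on the member genes, 10 were higher and 5 lower (31 at an unadjusted p under 0.05), a share of 17.9%. The probe sets higher belonged to 4 genes and those lower to 2. Rora, a nuclear receptor gene that supports Il17a in type 17 cells, was higher with 6 probe sets, from 2.64 to 5.12, of which 1 was lost in 5 of the 6 fits without 1 array. The other Rora probe sets stood at -0.0042 to 0.82 and did not pass. Its widest averaged 2.28 ± 0.07 in 2D11 and -2.84 ± 0.55 in OvacD8 (SD, n = 3 each; limma adjusted p = 0.0024). Maf, which acts on Il4, Il10 and Il21, was higher by 2.04 ± 0.17 with 1 probe set (SE, limma adjusted p = 0.0078), and Ets1 by up to 2.68 ± 0.30 (adjusted p = 0.0166). The other Maf probe sets stood at -0.0098 to 2.35 and did not pass. Neither did further Ets1 probe sets, at 0.32 and 0.44. Ikzf3 (Aiolos), which restrains Il2, was lower by -1.38 ± 0.16 and -0.98 ± 0.03 with its 2 passing probe sets (limma adjusted p = 0.0193 and 0.000608). Its other probe set stood at 0.048 and did not pass. Nfatc3, encoding an NFAT protein, was higher with 1 of its 2 probe sets by 1.27 ± 0.13 (SE; limma adjusted p = 0.0124), and this was lost in 3 of the 6 fits without 1 array (highest adjusted p = 0.0584, without 2D11 replicate 4). Satb1, a chromatin organiser of T cells, was lower with 3 probe sets, from -1.35 to -1.25 (highest limma adjusted p = 0.0204). Its others stood at -0.11 and 0.073 and did not pass. Without OvacD8 replicate 2, Maf (limma adjusted p = 0.0516), the wider Ets1 probe set (0.0813), the wider Ikzf3 probe set (0.0934) and every Satb1 probe set (lowest 0.0601) did not pass. Counts over the fits without 1 array were 6 to 12 higher and 1 to 13 lower. They were 6 and 1 without OvacD8 replicate 2, and 6 and 2 without OvacD8 replicate 3. Without 2D11 replicate 2 they were 6 and 4, and without OvacD8 replicate 1 they were 12 and 13. Of all 45037 probe sets, these fits called 811, 904, 901 and 4773, in that order. Tbx21, the factor that opposes Gata3, stood at -0.92 ± 0.16, with groups that did not overlap, and did not pass (SE, limma adjusted p = 0.0551).

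Of 27 probe sets for 19 other genes marked by type 2 helper cells, 3 were higher and 0 lower (6 at an unadjusted p under 0.05), a share of 11.1%. Dusp4, a MAP kinase phosphatase gene, was higher by 2.03 ± 0.31, and Tnfsf11, encoding RANKL, by 1.82 ± 0.28 and 1.39 ± 0.19 (SE; limma adjusted p = 0.0399, 0.0392 and 0.0313). Each of these calls was lost in 4 or 5 of the 6 fits without 1 array. With the split of the arrays by spike-in level as a term, the OvacD8 side of the comparison was replicate 1 alone. The differences were then 2.09 for Dusp4 and 1.42 and 1.09 for Tnfsf11. Without OvacD8 replicate 1, 3 were higher and 3 lower, in a fit that called 4773 of all 45037 probe sets.

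**Figure D4:**
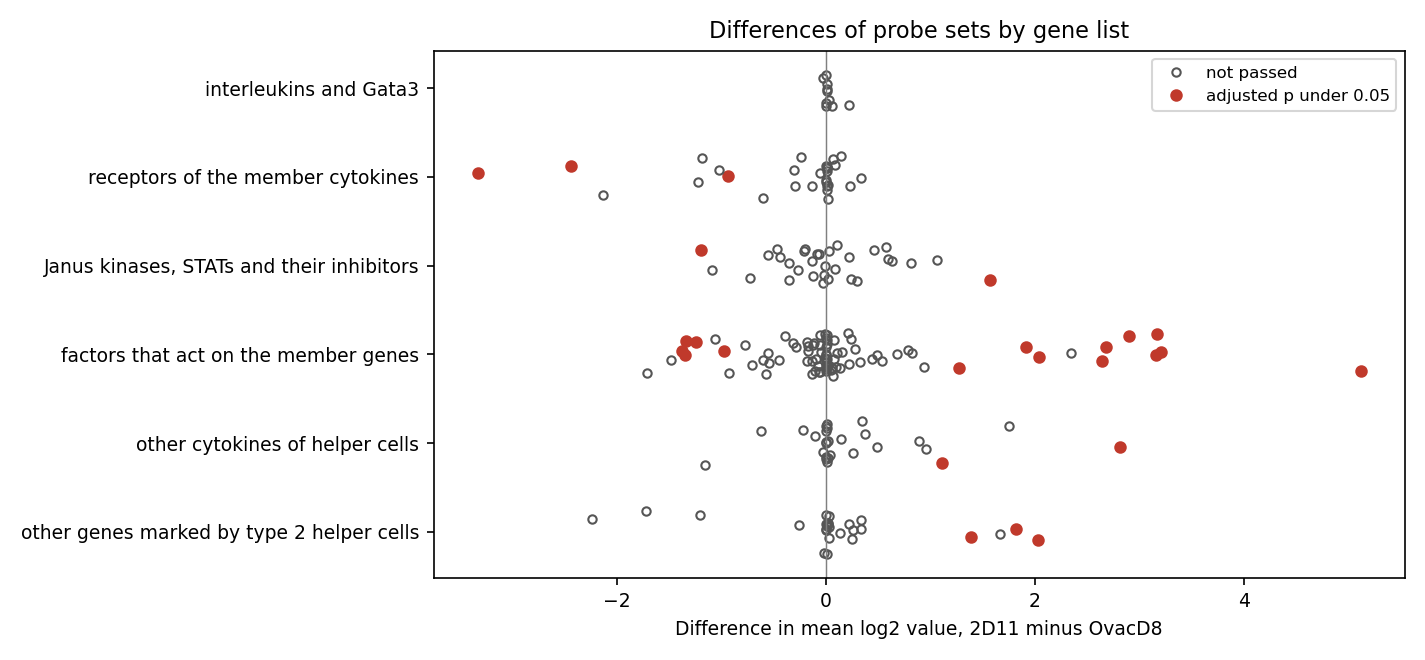
Difference in mean log2 value, 2D11 minus OvacD8 (x axis), of each probe set of the interleukins with Gata3 (top row) and of 5 lists of related genes (rows); filled red points passed at an adjusted p under 0.05 and open points did not. The top row holds 0 red points and ends at Gata3 (0.22), while Rora reaches 5.12 and Il2ra -3.33.

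Genes that lie beside the members in the genome were taken from RefSeq's gene order, the nearest 2 measured ones on each side. They comprised 49 probe sets for 29 genes, of which 1 was higher and 1 lower (12 at an unadjusted p under 0.05), and 20 spanned under 0.1. Of all probe sets, 4.06% were called, 16.0% had an unadjusted p under 0.05 (limma) and 34.4% spanned under 0.1. Near Il2 on chromosome 3, 1 of 4 probe sets of 4932438A13Rik was lower by -2.08 ± 0.11 (SE; limma adjusted p = 0.0022), while the others stood at 0.35, 0.80 and 0.43 and did not pass. Near Il17a on chromosome 1, 1 of 5 probe sets of the replication gene Mcm3 was higher by 0.26 (adjusted p = 0.0269), and this was lost in 4 of the 6 fits without 1 array (highest adjusted p = 0.112, without 2D11 replicate 1). Rad50, which holds the control region of the type 2 cytokine cluster, stood at 0.22 and 0.0043 with its 2 probe sets and did not pass (limma adjusted p = 0.369 and 0.942).

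Probe sets with a pattern like that of Gata3 over the 6 arrays were those of Acrbp (r = 0.974), Ccn3 (0.965) and Ccdc84 (0.960), out of 5485 with a symbol that spanned at least 1. All of them shared with Gata3 the high value on 2D11 replicate 2, at 1.23, 1.46 and 0.77. For Il2 they were Ccr9 (r = 0.994), Zfp982 (0.991) and Ints8 (0.990), each high on 2D11 replicate 4, at 0.94, 1.99 and 0.87. With 6 arrays that share their group and array offsets, such values of r describe the pattern only.

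Cells other than T cells can make these cytokines, and the cultures held antigen-presenting cells. Of 13 B cell marker probe sets, 12 spanned under 0.1 and 0 passed, with 0 at an unadjusted p under 0.05 (limma). Of 11 probe sets for mast cell and basophil markers, 5 spanned under 0.1 and 0 passed, with 2 at an unadjusted p under 0.05 (limma). Their median difference was 0.031. The mean of the list ran from -0.031 to 0.0015 on the 2D11 arrays and from -0.157 to 0.465 on the OvacD8 arrays. Cpa3, a mast cell protease gene, stood at -0.07, -1.57 and -0.35 on the 2D11 arrays, against 0.07, 3.60 and 3.36 on the OvacD8 arrays. It was lower in 2D11, opposite to the median of the list, and did not pass. The part of such cells in the members' values was not tested. Of 15 macrophage and monocyte marker probe sets, 0 passed (2 at an unadjusted p under 0.05; limma), with a list mean of -0.100 to 0.029 on the 2D11 arrays, against 1.45 on OvacD8 replicate 1 and 0.13 and 0.09 on replicates 2 and 3. Of 14 dendritic cell probe sets 1 was lower, of Itgax, a call lost in 5 of the 6 fits without 1 array. The highest limma adjusted p of Itgax there was 0.150, without OvacD8 replicate 2. Of 5 natural killer cell probe sets 1 was lower, of Gzma. Of 13 probe sets for group 2 innate lymphoid cells 6 were higher, all of them the Rora probe sets already counted among the transcription factors. That list also holds Gata3, which did not pass. The shares over all probe sets were 4.06% called, 16.0% at an unadjusted p under 0.05 (limma) and 34.4% spanning under 0.1. The macrophage list was high on the array on which the wider Il21 probe set stood high, and the part of such cells in that value was not tested.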

How the data were processed

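RNA of 6 samples was amplified (Ovation RNA Amplification System V2, per the labels) and read on arrays of 45101 probe sets. The submitters' processing notes name RMA. The deposited values were read as log2; their base is not given in the sources used here. Every probe set's median over the arrays lay within 5e-07 of 0, a step that no source describes. RMA shrinks differences among dim probe sets. With 6 arrays, precision rests on their number.

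Array controls (64) were left out. Of the other 45037 probe sets, 34945 had 1 symbol in the platform's annotation, 932 had several and 9160 were not listed. The comparison used limma 3.58.1 under R 4.3.3 (lmFit, eBayes, two-sided, Benjamini-Hochberg over all 45037), and a probe set passed at an adjusted p under 0.05. Differences are 2D11 minus OvacD8. The fit was tested on simulated data, with differences larger than those of any member and only in probe sets spanning at least 0.1. That test does not bear on differences as small as those of the members. All member probe sets are named. Of each list up to 4 genes that passed are named, by size, with others chosen after their values were seen. The members and lists were chosen with earlier results of these data known. The alternatives left out 1 array at a time, blocked on replicate number, or used other scalings, robust variances, array weights, the spike-in split, a filter on span, gene means and other thresholds.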

Additional observations from a re-analysis of the deposited data

How the results depend on the processing

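Of the 10 member probe sets, 0 passed without each array, with arrays centred on the median, quantile normalization, robust variances or array weights. The number was also 0 with the replicate number as a block, with gene means and without _x_at and _s_at probe sets. At a limma adjusted p under 0.1 in the main fit, 0 passed. The fit of probe sets spanning at least 0.1 held only 3 of the members, and 0 passed. A further threshold, a size of at least 1, could not change a count that was already 0. The spike-in split as a term rested on 1 OvacD8 array, and its calls are left out here. The count of all probe sets called was 1827 and depended on the arrays: 811 to 4773 without 1 array (811 without OvacD8 replicate 2, 4773 without OvacD8 replicate 1 and 901 to 1013 without each of the others), 229 with the replicate block, 2962 among probe sets spanning at least 0.1, 17219 with array weights, whose estimation stopped before it converged, and 1214 genes with gene means. Replicate numbers 1 and 2 are shared by the groups, but deviations from the group means correlated at -0.029 and 0.213, so they are not taken to pair the arrays. Replicates 3 and 4 occur in 1 group each, so with that block the difference rested on replicates 1 and 2 of each group. Its count of 229 is thus not one from all 6 arrays. In that fit 3 probe sets of the transcription factors were higher and 0 lower, and 0 of the other 4 lists of related genes were called. Gata3, Il2 and Il4 kept a positive sign in every fit (0.09 to 0.32, 0.0062 to 0.088 and 0.0064 to 0.037). Signs of the other interleukins turned. Leaving out 1 array gave -0.0051 to 0.0069 for Il5, -0.0046 to 0.011 for Il10, -0.0051 to 0.017 for Il13, -7.8e-05 to 0.021 for Il17a, and -0.0027 to 0.0089 and -0.050 to 0.013 for Il21 (narrower and wider probe set). Arrays centred on the median gave -0.0063 for Il5, -0.0015 for Il10 and -0.0025 for the narrower Il21 probe set. Quantile normalization gave -0.0051 for Il5, -0.0039 for Il10, -0.0051 for Il13 and -0.0036 for that Il21 probe set. Array weights gave -0.00074, -0.0098 and -0.0040 for Il5, Il10 and the narrower Il21 probe set. The spike-in split had only OvacD8 replicates 2 and 3 on its low side, so as a term it left 2D11 against OvacD8 replicate 1 alone. It gave -0.0077, -0.0020, -0.0022, -0.0120, -0.0069 and -0.0040 for Il5, Il9, Il10, Il13, Il17a and the narrower Il21 probe set. Gene means gave -0.0097 for Il21. The cause was not tested.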

Other observations

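Probe sets that carry a member's symbol together with another were left out of the counts, since their signal cannot be assigned to either gene. The one shared by Iltifb and Il22 stood at -0.022, 0.027 and -0.029 on 2D11 replicates 1, 2 and 4, against -0.020, 0.399 and 0.020 on OvacD8 replicates 1, 2 and 3. OvacD8 replicate 2, the lowest array for most of the interleukin probe sets, was the high one here, and the difference of -0.14 ± 0.12 did not pass (SE; limma adjusted p = 0.755). The one shared by Ntan1 and Il2 stood at -0.036, -0.176 and -0.202 on the 2D11 arrays, against 0.036, 0.316 and 0.505 on the OvacD8 arrays. Its groups did not overlap, and its difference of -0.42 ± 0.13 (limma adjusted p = 0.214) ran opposite to that of the probe set of Il2 alone (0.060).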
